A study of Mus musculus with 292 samples.

Results

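The genes described here encode the proteins of the cytosolic ribosome, measured in 4 tissues of wild-type C57BL/6J male mice around the day. They were taken by symbol, as Rpl or Rps followed by a number with at most one trailing letter, together with Rplp0, Rplp1, Rplp2 and Rpsa. Pseudogenes and the Rps6k kinases were left out, and a mean of at least 10 CPM (counts-per-million, counts scaled to the total of a library) was required in each tissue. Of 82 matching symbols among 48795 gene identifiers, 47 passed in every tissue, 27 of the large and 20 of the small subunit. The other 35 fell below the threshold in at least 1 tissue. Just inside it were Rpl10a, with a mean of 10.3 CPM in its lowest tissue, Rpl6l with 12.0 CPM and Rps7 with 12.1 CPM. Just outside were Rpl35a at 9.58 CPM, Rpl39 at 9.04 CPM and Rpl37a at 8.96 CPM. Several textbook members of the ribosome are therefore not among the 47, Rps6, Rpl11, Rps27 and Rps29 among them.

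Messenger RNA was sequenced from the right hemisphere of the cortex, the right striatum, the hypothalamus and the liver of mice aged 26 weeks, every 3 h for 36 h. All mice were of the same genotype, and no treatment is given. Time is given as zeitgeber time (ZT, hours in the light cycle), and the 13 time points fall on 8 ZT groups, with ZT0, ZT3, ZT6, ZT9 and ZT12 sampled in both cycles. There were 78 libraries of cortex, 60 of striatum, 77 of hypothalamus and 77 of liver, from 79 mice, each library of a tissue being a separate mouse per the labels. The number of mice counts 1 code that differs in form from the others as a mouse of its own.

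The cytosolic ribosome joins a large subunit, which forms peptide bonds, to a small subunit, which decodes the messenger. Its proteins are needed in equal numbers, apart from the acidic stalk proteins, and their messengers are among the most abundant of a mammalian cell. Most of these messengers begin with a cytosine followed by a run of pyrimidines, the 5′ terminal oligopyrimidine (TOP) tract, through which the mTOR kinase and the protein Larp1 control their translation, so that in liver the rhythm of ribosome synthesis is known to involve translation as well as messenger level.

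Libraries of cortex held 28318897 to 40528684 counts, those of striatum 11677671 to 43424559, those of hypothalamus 29242990 to 50009419, and the 76 liver libraries used 27491411 to 41861697. Liver ZT18 replicate 4 was left out by the rule, with 11693613 counts, of which 62.3% fell on Gm42418, a gene model over ribosomal RNA. Hepatocyte markers (Alb, Apoa1, Cps1, Cyp2e1 and Ttr) summed to at least 86109 CPM in every liver library, against medians of 26.3 CPM in cortex, 336 CPM in striatum and 5.33 CPM in hypothalamus. They reached 4369 CPM in cortex ZT0 replicate 1 and 21597 CPM in striatum ZT12 replicate 11. Ttr is also a gene of the choroid plexus, and choroid plexus markers were highest in the same 2 libraries, at 252 CPM (cortex median 7.09) and 459 CPM (striatum median 37.3). The 5 markers of striatal projection neurons ranged from 61.0 to 4670 CPM among striatum libraries, and pituitary markers reached 40151 CPM in hypothalamus ZT0 replicate 9, against a median of 69.7 CPM. In striatum ZT21 replicate 3, cerebellum markers reached 2820 CPM (striatum median 0.80) and cortical excitatory neuron markers 420 CPM (striatum median 23.2). The cortical excitatory neuron markers fell to 10.7 CPM in a cortex library, against a cortex median of 1412 CPM. The part of such mixtures in the results below was not tested, beyond leaving out the libraries that stand furthest apart. In bulk tissue, fewer cells of a type and less RNA per cell cannot be told apart.

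The members differed widely in level within each tissue. Levels of different genes are compared here as FPKM, the authors' fragments per kilobase of gene model scaled to the library total, in which the lowest and highest members were 82.7-fold apart in cortex, 103-fold in hypothalamus, 115-fold in striatum and 119-fold in liver. The median member stood at 34.0 FPKM in striatum, 29.8 FPKM in hypothalamus, 29.2 FPKM in liver and 20.3 FPKM in cortex. Rplp1, a protein of the acidic stalk that recruits translation factors, was the highest member in all 4 tissues, followed by Rpl4, Rps15 and Rpl8 in an order that changed with the tissue.

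The messengers of the 3 stalk proteins were far from equal in FPKM. In cortex Rplp1 ranged from 120 to 949 FPKM with a median of 275 FPKM. Rplp0, the base of the stalk, ranged from 32.4 to 83.8 FPKM with a median of 42.3 FPKM. Rplp2, the partner of Rplp1, ranged from 4.28 to 16.2 FPKM with a median of 6.91 FPKM. The ranges of the 3 genes did not overlap in cortex. In liver the ranges were 307 to 535 FPKM for Rplp1, 101 to 151 FPKM for Rplp0 and 5.34 to 11.8 FPKM for Rplp2, again apart. Without the division by gene-model length, mean liver values were 198 CPM for Rplp1, 196 CPM for Rplp0 and 15.6 CPM for Rplp2.

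At the lower end stood Rpl5, which carries the 5S ribosomal RNA into the large subunit, at 3.37 ± 0.40 FPKM in liver (SD, n = 76) and 4.54 ± 0.41 FPKM in hypothalamus (SD, n = 77). Rpl10a, a protein of the mobile stalk at the ribosome's exit side, had 4.39 ± 1.78 FPKM in liver and 5.64 ± 0.74 FPKM in striatum. Rpl18 was the lowest member in cortex, at 3.52 ± 0.71 FPKM. The SD of Rpl10a in liver was the widest of these in proportion to its mean. Gene-model length enters FPKM, and the models of some of the lowest members are long: 3920 bases for Rpl5, 4043 for Rpl18 and 6270 for Rps15a, whose principal transcripts have 2045, 679 and 640 bases. Long models were not confined to low members, as Rps3, with 4483 exonic bases, had 45.2 FPKM in cortex. The model of Rplp1 has 495 bases.

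**Figure D1:**
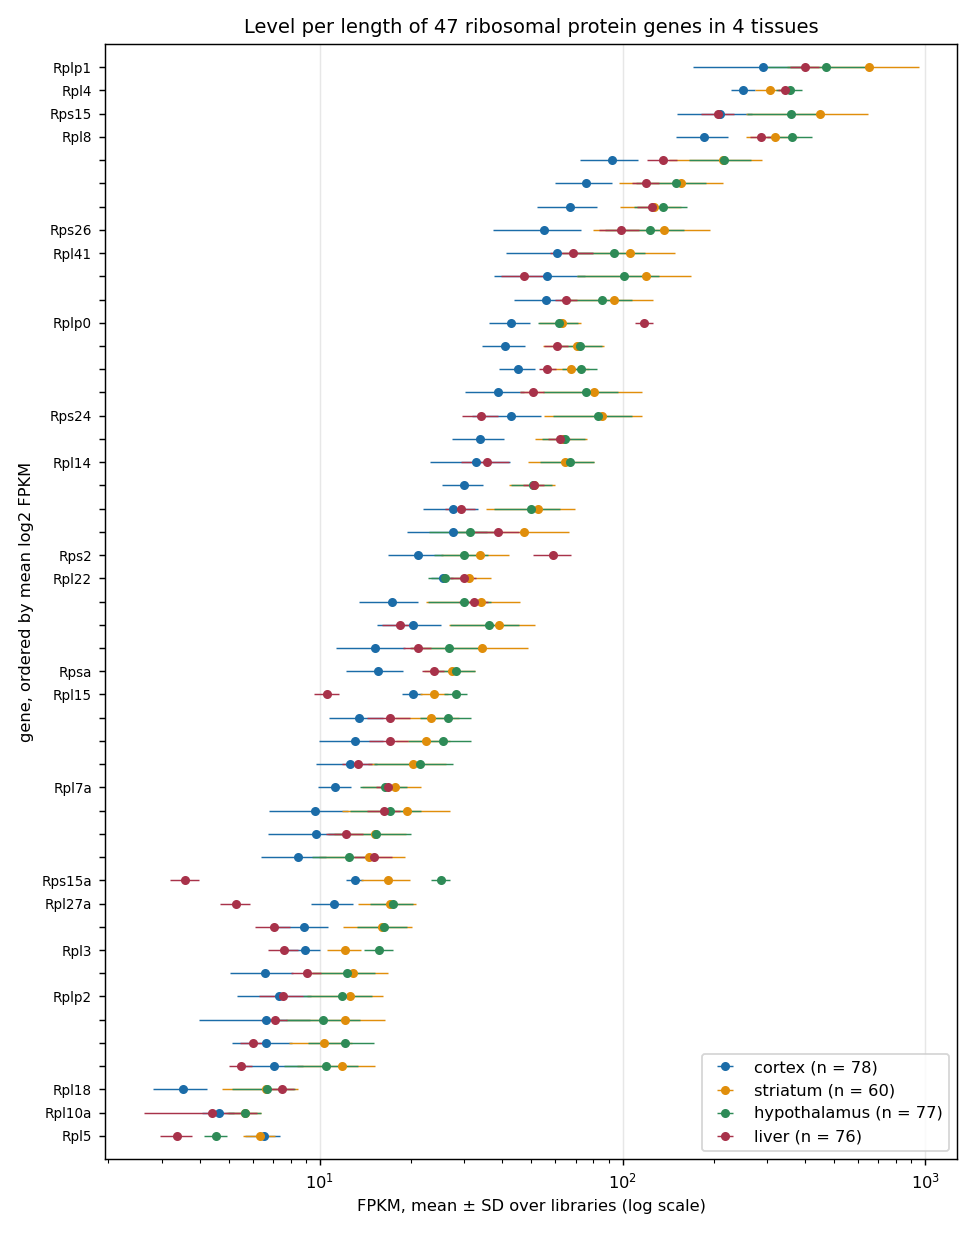
Mean FPKM (horizontal axis, log scale) of the 47 genes (vertical axis, ordered by mean level, with a selection labelled) in each tissue, with bars of 1 SD over 78 cortex, 60 striatum, 77 hypothalamus and 76 liver libraries. Rplp1 is at the top in every tissue, Rplp0 and Rps2 stand out as high in liver, and Rps15a, Rpl27a and Rpl15 as low there.

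Much of each gene's sequence is shared with other genes, since ribosomal protein genes have many processed pseudogenes. The share of 50-base stretches of the principal transcript (GENCODE M21) found in no other gene's transcripts was between 6.16% (Rpl5) and 100% over the 46 members with such a transcript, with a median of 53.4%. For the 34 genes below the threshold that could be read the median was 33.0%. Across members, the Spearman rank correlation of this share with mean FPKM was 0.40 in liver and between 0.45 and 0.47 in the 3 brain tissues, over 46 genes that share libraries and are not independent. The lowest shares among members were those of Rpl5, Rpl10a (11.9%), Rps18 (13.3%), Rpl3 (14.4%) and Rpl7a (18.8%). How reads that match several places were counted is not given in the sources used here, so the levels of such members are uncertain.

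Counts assigned to the pseudogenes themselves were sizeable for a few members. Of 32 members with listed pseudogenes, Rpl3, Rpl10a and Rpl14 had fewer counts than their own pseudogenes in each of the 3 brain tissues. In liver Rps15a and Rps24 joined them. In liver Rpl10a took 10.1% of the counts shared between it and its pseudogenes, and 20.6% in cortex. Rpl3, which lies near the peptidyl transferase centre, took 24.5% in liver and 24.3% in cortex. For the median member the share was 89.3% in liver and 90.7% in cortex. Exons of other genes overlap some members as well, over 35.4% of the exonic bases of Rpl13a (Gm45713 and small RNA genes, same strand), 26.7% of Rpl5 (mostly Fam69a, opposite strand) and 24.8% of Rps25 (Trappc4 and Ccdc84, opposite strand). The strand setting of the counts is not given in the sources used here.

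**Figure D2:**
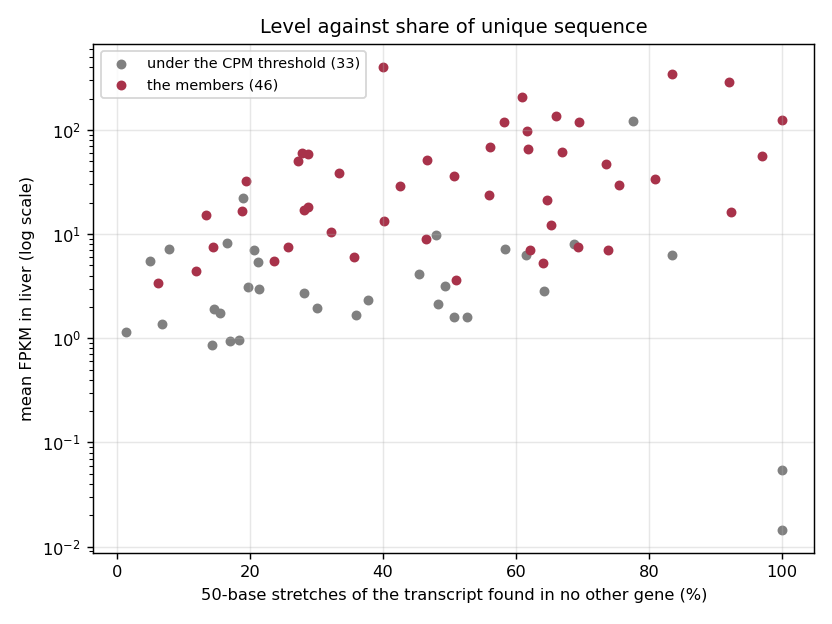
Mean FPKM in liver (vertical axis, log scale) against the percent of 50-base stretches found in no other gene (horizontal axis), for 46 members and 33 genes below the CPM threshold that have a value above 0; each point is 1 gene. The lower left holds mostly genes below the threshold, and Rplp1, at 401 FPKM, has 40.0% unique sequence.

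Together the 47 genes took a small part of all counts. Their summed share ranged from 0.228% to 0.588% in cortex with a median of 0.262%, and from 0.232% to 0.777% in striatum with a median of 0.446%. In hypothalamus it ranged from 0.340% to 0.682% with a median of 0.445%, and in liver from 0.304% to 0.462% with a median of 0.359%. The spread was widest in striatum (SD 0.111, n = 60) and narrowest in liver (SD 0.0259, n = 76). Cortex ZT6 replicate 10 had the highest share among cortex libraries, and striatum ZT18 replicate 3 among all libraries.

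Within a tissue the members moved together from library to library. The median Pearson correlation of CPM over the 1081 pairs of members was highest in striatum, at 0.78, then 0.71 for hypothalamus, 0.62 for cortex and 0.53 for liver, values that share each library's depth and composition. Rps15a, a small subunit protein, and Rpl15, a large subunit protein, stood apart from the rest. In cortex Rps15a had r = -0.17 and Rpl15 r = 0.34 with the mean of the others, in hypothalamus -0.28 and 0.15, and in striatum 0.041 and -0.057. In liver the lowest were Rpl15 at -0.19 and Rps7 at -0.13.

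The summed share went with a measure of library make-up. For each library the log2 deviation of every other gene from its tissue mean was regressed on log2 gene-model length, so that a negative length slope marks a library in which short genes were relatively high. Pearson's r of the share with this slope was -0.90 in cortex (Spearman's rho -0.78), -0.97 in striatum (rho -0.98), -0.97 in hypothalamus (rho -0.96) and -0.74 in liver (rho -0.63). Without the 2 libraries furthest from the median slope, r was -0.71, -0.97, -0.97 and -0.62. The summed pseudogene CPM rose with the share as well, with r between 0.98 and 0.99 in the 4 tissues. The percent of counts on Gm42418 had r = 0.84 with the share in striatum and 0.81 in hypothalamus, against 0.38 in cortex and 0.22 in liver, where it was 0.15 and -0.016 without the 2 libraries furthest from the median. The percent of counts on mitochondrial genes had r = 0.86 with the share in cortex (0.50 without 2 libraries), 0.88 in striatum and 0.88 in hypothalamus. In liver it was 0.20, and -0.54 without 2 libraries. Total counts had r between -0.08 and 0.05. These are descriptions over libraries, 5 relations per tissue, and the part of length, RNA quality or cell make-up in the spread of the share was not tested. The length slope was chosen after the data had been seen, and each rhythm below was fitted with it and without it.

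**Figure D3:**
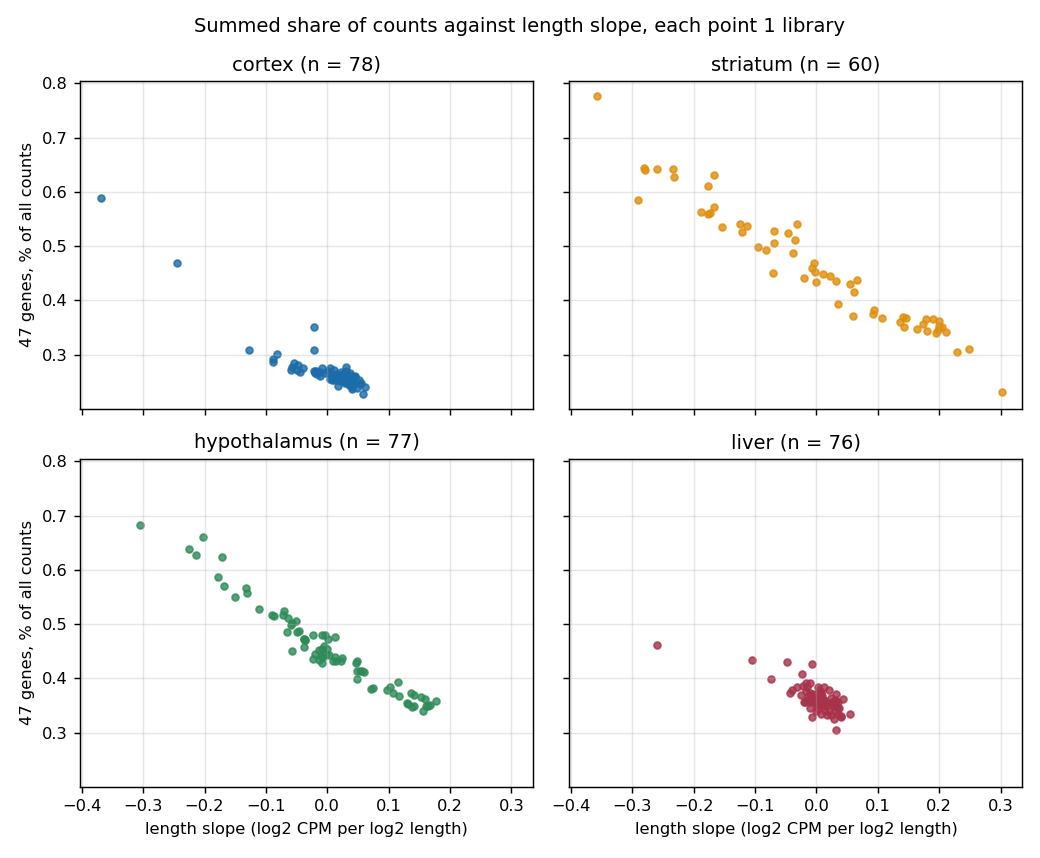
Summed share of counts of the 47 genes (vertical axis, percent) against the length slope (horizontal axis, log2 CPM per log2 length) in each tissue, each point 1 library. In striatum and hypothalamus the points fall along 1 line over most of the range, while in cortex the 2 libraries at 0.588% and 0.469% lie far from the rest.

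In liver, 22 of the 47 members had a 24 h rhythm, with small ratios. Rhythm was tested with edgeR's quasi-likelihood test of the cosine and sine of ZT on counts scaled by TMM (a factor that sets the typical gene equal between libraries), and called at a Benjamini-Hochberg adjusted p under 0.05 over all 16258 genes tested. The background was 74.8% of all genes called in liver, so the members' 46.8% lay below it. The fitted peak-to-trough ratio, on a log2 scale, had a median of 0.16 over the 47 members and 0.38 over all genes tested. Of the 22, 15 belong to the large and 7 to the small subunit. Fitted peaks fell between ZT10 and ZT18 for 43 of the 47 and for 20 of the 22.

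Rpl10a had the largest ratio. Its liver CPM at ZT3 had a lowest value of 4.70, a median of 6.18 and a highest of 8.80 (n = 12). At ZT12 the corresponding values were 8.56, 13.5 and 25.6 CPM (n = 12), and at ZT15 9.52, 14.1 and 21.4 CPM (n = 6). The ZT15 libraries all lay above all those of ZT3, and ZT12 overlapped ZT3 slightly at the low end. The fitted log2 ratio was 1.25 ± 0.13 (SE), that is 2.38-fold, with a peak at ZT16.6 and an edgeR adjusted p of 3.3e-13. A component of 12 h was also called for Rpl10a, with a log2 ratio of 0.41 ± 0.11 (edgeR adjusted p = 0.0125).

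The counts of its closest copy varied less in proportion. Rpl10a-ps1 shares 88.1% of the 50-base stretches of Rpl10a, and its mean liver CPM lay between 86.1 ± 5.2 at ZT3 (SD, n = 12) and 97.1 ± 8.2 at ZT12 (SD, n = 12). When each gene was summed with its pseudogenes of the -ps form, the log2 ratio of Rpl10a was 0.22 ± 0.06 with a peak at ZT14.0. Rpl10a remained called (edgeR adjusted p = 0.0024). Under the same summing Rpl3 went from 0.25 ± 0.05 to 0.13 ± 0.04 (edgeR adjusted p = 0.032). Rpl7a went from 0.27 ± 0.04 to 0.25 ± 0.04, and 23 members were called, all 22 among them (background 75.0%). Why the counts of Rpl10a and its copy differ in time was not tested.

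Rpl22, an RNA-binding protein of the large subunit, was among the 2 called members with a fitted peak outside ZT10 to ZT18. Its liver CPM had a lowest value of 84.4, a median of 92.7 and a highest of 106 at ZT6 (n = 12), against 72.7, 76.7 and 82.8 at ZT18 (n = 5). The 2 groups did not overlap. The log2 ratio was 0.30 ± 0.04 with a peak at ZT8.6. Its near copy Rpl22l1, outside the symbol rule, had a log2 ratio of 0.42 ± 0.06 with a peak at ZT9.1 (edgeR adjusted p = 7.1e-08).

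**Figure D4:**
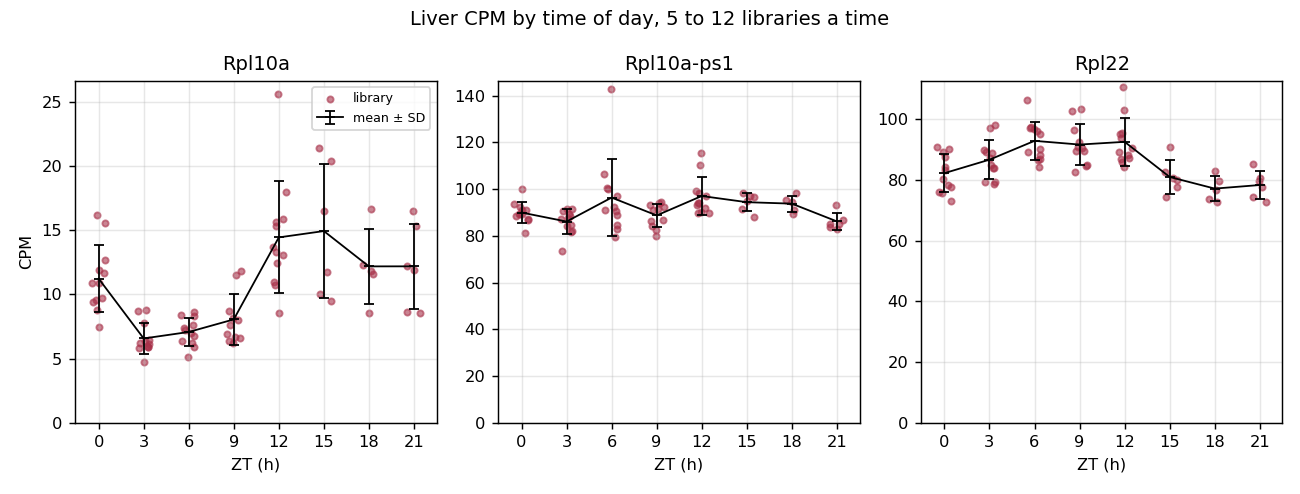
Liver CPM (vertical axis, from 0) by ZT (horizontal axis, h) of Rpl10a, its pseudogene Rpl10a-ps1 and Rpl22; points are libraries, 5 to 12 a time, and the line joins means with bars of 1 SD. Rpl10a is lowest at ZT3 and highest at ZT12 and ZT15, Rpl10a-ps1 varies little in its mean, and the means of Rpl22 are higher from ZT6 to ZT12 than from ZT15 to ZT21.

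The other called members had fitted peaks between ZT10 and ZT18, apart from Rpl15. Rpl7a, a large subunit protein near the exit tunnel, had values from 25.1 to 30.8 CPM with a median of 28.1 at ZT3, and from 30.1 to 36.6 CPM with a median of 34.1 at ZT15. These overlapped only between the lowest ZT15 and the highest ZT3 libraries. Its log2 ratio was 0.27 ± 0.04 with a peak at ZT16.7. Among small subunit members Rps18 had 0.28 ± 0.07 with a peak at ZT14.0, and Rps9, which helps keep decoding accurate, had 0.21 ± 0.04 with a peak at ZT12.6. The smallest ratios called were those of Rpl4 (0.09 ± 0.03) and Rps4x (0.13 ± 0.05).

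Rpl15 had the opposite timing. Its liver CPM was 22.8 to 30.1 with a median of 27.6 at ZT0 (n = 12) and 19.4 to 24.6 with a median of 22.7 at ZT12 (n = 12). The groups overlapped between 22.8 and 24.6 CPM. The log2 ratio was 0.16 ± 0.04 with a peak at ZT0.9 (edgeR adjusted p = 0.0022). Of the stalk, Rplp2 was called, at 0.25 ± 0.07, while Rplp1 had 0.11 ± 0.06 (edgeR adjusted p = 0.19) and Rplp0 0.07 ± 0.04 (edgeR adjusted p = 0.31). Rpsa, the laminin receptor protein of the small subunit, had 0.12 ± 0.05 (edgeR adjusted p = 0.057), and Rpl41, the smallest ribosomal protein, 0.10 ± 0.09 (edgeR adjusted p = 0.55).

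The count of rhythmic members depended on 1 library and on the length slope. With liver ZT18 replicate 4 kept in, 13 of the 22 were called (72.8% of all genes). With the length slope as a covariate 36 members were called, all 22 among them (background 78.4%), at a median log2 ratio of 0.12. The first cycle alone gave 9 (63.0% of all genes). Rpl3, Rpl6, Rpl7a, Rpl10a, Rpl22, Rpl34, Rplp2 and Rps9 were called under each of the 14 alternatives run.

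In cortex 6 of 47 members were called, against a background of 43.7%, with a median log2 ratio of 0.18 over the members and 0.19 over all 19564 genes tested. They were Rpl5, Rpl22, Rpl3, Rps15a, Rps24 and Rpl26. Rpl5 had values from 20.1 to 26.6 CPM with a median of 22.2 at ZT0 (n = 12) and from 23.5 to 47.4 CPM with a median of 26.4 at ZT6 (n = 12), which overlap. Its log2 ratio was 0.19 ± 0.05 with a peak at ZT9.2 (edgeR adjusted p = 0.0073). Rpl22 had 0.13 ± 0.04 with a peak at ZT8.3, near its time in liver, and Rps15a 0.09 ± 0.03 with a peak at ZT14.3. The largest fitted ratio, 0.40 ± 0.16 for Rplp1, was not called (edgeR adjusted p = 0.11). With the length slope as a covariate 7 members were called, 4 of them shared (background 49.2%), and Rps24 and Rpl26 were not. Without the cortex libraries with foreign markers (ZT0 replicate 1 and ZT9 replicate 9) 5 were called, 4 of them shared.

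In striatum and hypothalamus no member was called, at backgrounds of 5.70% and 24.3%. None had an unadjusted p under 0.05 in either tissue, and DESeq2's likelihood ratio test called none as well. The members' median log2 ratio was 0.07 in striatum, where all 21637 genes tested had 0.24, and 0.13 in hypothalamus, where all 20407 had 0.16. As in liver, these medians compare genes of unlike level, and noise raises the fitted ratio of genes with low counts. The lowest adjusted p of a member was 0.71 in striatum and 0.15, for Rpl15, in hypothalamus. With the length slope as a covariate, Rpl27a was called in striatum (log2 ratio 0.21, background 11.7%), and Rpl3 (0.10) and Rpl7a (0.08) in hypothalamus (background 39.9%).

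**Figure D5:**
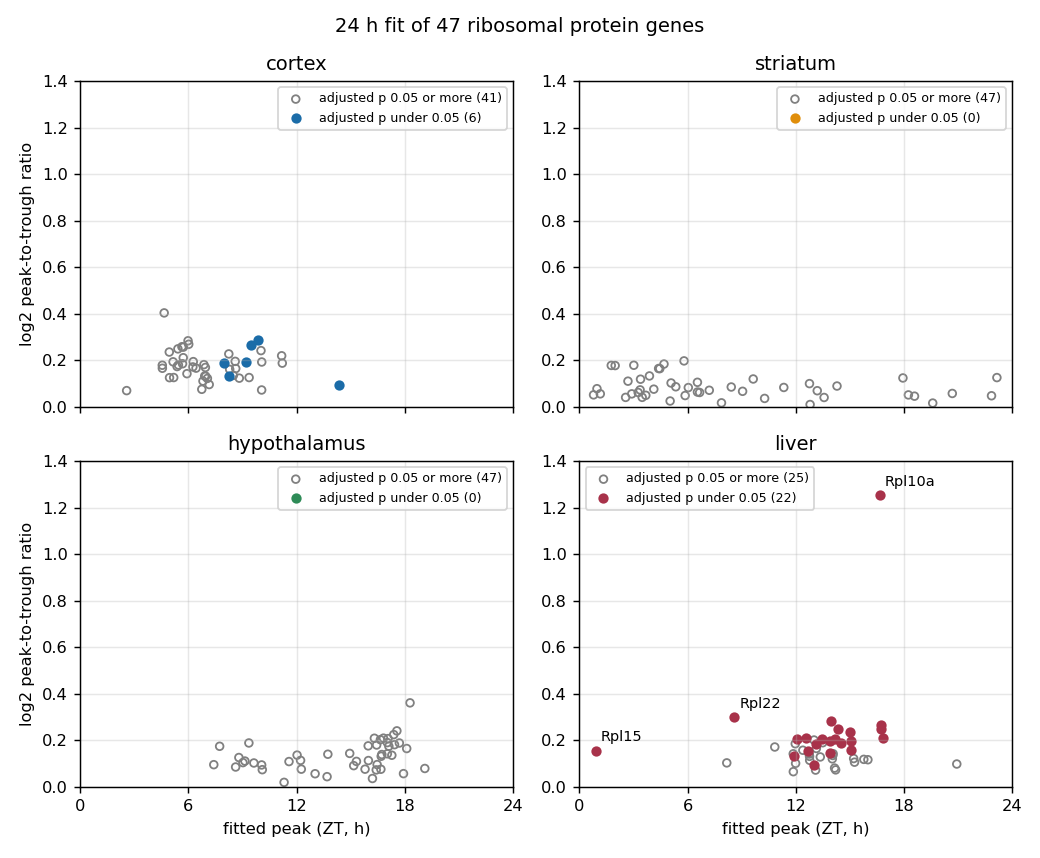
Fitted log2 peak-to-trough ratio (vertical axis) against fitted peak time (horizontal axis, ZT in h) for the 47 genes in each tissue; filled points have an edgeR adjusted p under 0.05, open points do not. The 22 filled points of liver lie mostly between ZT12 and ZT18, with Rpl10a far above the rest, and neither striatum nor hypothalamus has a filled point.

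In striatum the summed share differed between neighbouring times. The median summed share was 0.532% at ZT18 (4 libraries from 0.460% to 0.777%) and 0.354% at ZT21 (6 libraries from 0.232% to 0.434%), and the ZT18 and ZT21 libraries did not overlap. It was 0.370% at ZT9 (9 libraries from 0.340% to 0.563%). Striatum ZT21 replicate 3 is the library with cerebellum markers. The 12 h component had a median log2 ratio of 0.68 over the members against 0.32 over all genes. No member was called with the edgeR test (background 0.0277%), though 44 of 47 had an unadjusted p under 0.05, beside 5381 of all 21637 genes. The lowest adjusted p was that of Rpl30, at 0.83 ± 0.17 (edgeR adjusted p = 0.071). With the length slope as a covariate the members' median was 0.11. In liver 1 member, Rpl10a, had a called 12 h component (background 17.2%). None was called in cortex (background 0.332%, 1 member at an unadjusted p under 0.05) or hypothalamus (background 0.0686%, 0 members).

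At the 5 times sampled in both cycles, later libraries were set against earlier ones. No member was called in any tissue with the edgeR test, at backgrounds of 6.82% in cortex, 2.92% in striatum and 0% in hypothalamus and liver. With the length slope as a covariate, 2 were called in striatum (background 16.9%). At an unadjusted p under 0.05 there were 15 members in hypothalamus, beside 1179 of all 19696 genes, and 3 in liver, beside 1101 of 15604. There were 1 in cortex, beside 4194 of 18909, and 0 in striatum, beside 4543 of 19813. The members' median log2 difference, second minus first, was -0.16 in hypothalamus, -0.08 in striatum, -0.04 in liver and 0.03 in cortex.

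Whether a member's 24 h curve differed between a pair of tissues was tested in 1 edgeR model, with both tissues of a mouse kept together. Against cortex, 10 members differed in liver (background 50.8%), with Rpl10a, Rpl15, Rpl3, Rpl7a, Rpl8, Rpl22, Rpl13a, Rps9 and Rpsa among them. Against hypothalamus the 4 were Rpl10a, Rpl22, Rpl15 and Rpl3 (background 46.7%), and against striatum Rpl10a and Rpl15 (background 25.0%). The difference for Rpl10a was 1.22 on the log2 scale against cortex (76 mice, edgeR adjusted p = 8.8e-12), 1.18 against striatum (58 mice) and 1.03 against hypothalamus (75 mice). For Rpl15 it was 0.23, 0.29 and 0.22. These comparisons share the liver libraries. With the length slope of each tissue as covariates the counts were 18 (background 54.9%), 11 for striatum (36.3%) and 13 for hypothalamus (53.2%). No member differed between 2 brain tissues, at backgrounds of 0.0543% for striatum and cortex, 6.48% for hypothalamus and cortex and 0.0134% for hypothalamus and striatum, and the lack of a call there does not show equal rhythms.

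Levels differed between tissues for nearly all members. Unlike the rhythms, the level differences were not fitted with the length slope, and the part of library make-up in them was not tested. Striatum was higher than cortex for 46 of 47 with the edgeR test paired by mouse (backgrounds 44.8% of genes higher and 37.5% lower), at a median log2 difference of 0.74 where all genes had 0.06. Rps26 in striatum ranged from 38.4 to 328 FPKM with a median of 123 FPKM, and in cortex from 37.8 to 156 FPKM with a median of 52.7 FPKM. The ranges overlapped, and the log2 difference was 1.22 ± 0.11, the largest of the pair. Rpl5 did not pass, at -0.06 ± 0.04 (edgeR adjusted p = 0.12).

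Hypothalamus was higher than cortex for 44 members (background 47.1%) and lower for 2 (background 41.9%), at a median of 0.65. The 2 were Rpl5, at -0.67 ± 0.02, and Rpl22, at -0.13 ± 0.03. Rpl5 ranged from 3.79 to 6.46 FPKM with a median of 4.51 FPKM in hypothalamus and from 5.13 to 12.1 FPKM with a median of 6.38 FPKM in cortex. Those ranges overlapped at their ends. The call for Rpl22 did not hold when libraries were scaled by total counts alone, where its difference was 0.03 (edgeR adjusted p = 0.15). Against striatum, hypothalamus was lower for 22 members (background 35.4%) and higher for 3 (background 34.1%), namely Rps15a, Rpl3 and Rpl15. By total counts alone 10 were lower (background 22.8%) and 9 higher (background 48.2%).

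Liver was higher than cortex for 43 members (background 42.5%) and lower for 2, Rps15a and Rpl27a (background 53.8%), at a median log2 difference of 1.29. It was higher than striatum for 38 and lower for 4 (backgrounds 41.3% and 52.0%), and higher than hypothalamus for 41 and lower for 5 (backgrounds 42.1% and 53.6%). These counts depend on the scaling. TMM placed the median of all genes at -0.30 against cortex and total counts alone at -1.22, and by total counts alone liver was higher than cortex for 33 members and lower for 11 (backgrounds 27.0% and 70.2%). Against striatum the counts were then 5 higher and 35 lower (backgrounds 22.2% and 73.0%), and against hypothalamus 8 higher and 35 lower (backgrounds 22.7% and 74.4%). Relative to the median of all genes the members' median was higher in liver by 1.60 against cortex, by 0.89 against striatum and by 1.03 against hypothalamus. Scaling shifts all genes of a library alike, so these offsets hardly change with it and their agreement is no support. The members had to reach 10 CPM in each tissue and the other genes did not, so the offsets depend in part on that rule. The 10 highest genes took 19.2% of counts in liver and 7.17% in cortex.

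Rplp0 and Rps2 were the members with the largest rise from cortex to liver, and Rps15a the one with the largest fall. Rplp0 ranged from 101 to 151 FPKM in liver and from 32.4 to 83.8 FPKM in cortex, without overlap, and its log2 difference was 2.41 ± 0.03. Rps2, a small subunit protein near the messenger's entry, ranged from 50.4 to 122 FPKM in liver with a median of 58.1 FPKM and from 17.2 to 52.4 FPKM in cortex with a median of 20.2 FPKM, at 2.43 ± 0.03, and the ranges overlapped at their ends. Rps15a ranged from 2.86 to 4.85 FPKM in liver, and its lowest value in the other tissues was 10.9 FPKM, in striatum. It differed from cortex by -0.95 ± 0.02 and from hypothalamus by -1.70 ± 0.02. Of the counts on Rps15a and its pseudogenes the gene held 38.5% in liver, 75.3% in cortex and 74.2% in hypothalamus. Mean CPM on the gene was 22.5 in liver and 81.7 in cortex, and on its pseudogenes 36.0 and 26.8. The part of read assignment between the copies in this difference was not tested. Rps27l, a paralogue of Rps27 outside the 47, had 121 ± 19 FPKM in liver (SD, n = 76) and 7.10 ± 1.86 FPKM in cortex (SD, n = 78).

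Start sites of members described above are shown to let the TOP tract be read beside their values. RefSeq promoter entries (GRCm38.p6) matched 31 of the 47 members, and the windows run from 10 bases before the annotated start to 20 from it on, 5′ to 3′ on the gene's strand, with the tract in capitals. A tract is a C followed by at least 4 pyrimidines that begins within 10 bases of the start. The first 6 were called in liver under every alternative, Rpl15 has the opposite timing, Rps15a was low in liver, and the last 3 hold no tract that begins within this distance. Of those 3, Rpl22 was called in liver and Rpl5 and Rplp0 were not.
Rpl10a, chr17:28328461-28328490 (plus strand): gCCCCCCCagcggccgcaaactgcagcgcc
Rpl7a, chr2:26910797-26910826 (plus strand): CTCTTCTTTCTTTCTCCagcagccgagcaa
Rpl6, chr5:121204491-121204520 (plus strand): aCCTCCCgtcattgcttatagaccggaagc
Rpl34, chr3:130730379-130730408 (minus strand): tccctgacgtaCTTCCTgtccggcgccgtc
Rplp2, chr7:141447641-141447670 (plus strand): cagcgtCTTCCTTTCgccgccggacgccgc
Rps9, chr7:3704031-3704060 (plus strand): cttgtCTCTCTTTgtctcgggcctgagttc
Rpl15, chr14:18270967-18270996 (minus strand): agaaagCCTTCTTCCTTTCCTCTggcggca
Rps15a, chr7:118116128-118116157 (minus strand): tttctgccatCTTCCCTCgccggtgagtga
Rpl22, chr4:152325716-152325745 (plus strand): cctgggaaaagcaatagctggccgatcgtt
Rpl5, chr5:107900518-107900547 (plus strand): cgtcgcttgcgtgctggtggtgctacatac
Rplp0, chr5:115559457-115559486 (plus strand): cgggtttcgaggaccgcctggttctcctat

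Of the 31 members 18 (58.1%) held such a tract, against 30.8% of 27018 promoter entries, and 14 (45.2%) held one of a C and at least 6 pyrimidines, against 12.2%. An annotated start need not be the base at which transcription begins. A window without a counted tract says only that none begins within 10 bases of the annotated start. That of Rplp0 holds a C followed by 4 pyrimidines beyond this distance. A counted tract may also lie before the annotated start. Those of Rpl10a and Rpl6 begin 9 bases before it and end before it. Whether the counted tracts begin the messengers was not tested. In liver, 11 of the 18 members with a tract and 4 of the 13 without were called rhythmic, with median log2 ratios of 0.20 and 0.13. In cortex 2 of 18 and 3 of 13 were called.

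Other motifs were searched on both strands of the 300 bases from 250 before to 50 after the start. CCGGAAG, the core of the site of GABP, a factor known at ribosomal protein promoters, was in 41.9% of the members and 9.12% of all entries. GGGCGG, the core of the SP1 site, was in 61.3% and 35.9%, and TATAAA in 6.45% and 14.2%. The E-box CACGTG, which the clock proteins Clock and Bmal1 bind, was in 12.9% of members and 7.24% of all entries. Whether it bears on the timing of these genes was not tested. Its 4 holders are given with the E-box in capitals.
Rpl34, chr3:130730538-130730563 (minus strand): cctaacttctCACGTGacgttcctac
Rpl13a, chr7:45128930-45128955 (minus strand): ctccgaaaccCACGTGacatcccgcc
Rpl14, chr9:120571339-120571364 (plus strand): aagctcactgCACGTGtctgaggaga
Rpl23, chr11:97782427-97782452 (minus strand): gaggtccggtCACGTGgctgagtggg

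Of these, Rpl13a had a liver log2 ratio of 0.21 ± 0.05 with a peak at ZT16.9 and Rpl34 one of 0.21 ± 0.05 with a peak at ZT13.4, both called. Rpl14 (0.20 ± 0.09, edgeR adjusted p = 0.10) and Rpl23 (0.16 ± 0.07, edgeR adjusted p = 0.13) were not. The median of the 4 was 0.20 and that of the 27 without an E-box 0.13, with 13 of the 27 called. None of the 4 was called in a brain tissue.

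Genes that make or control the ribosome were read beside the members, in liver first, where the background was 74.8% and the median of all genes 0.38. Of the other ribosomal protein genes, 23 of 32 tested below the CPM threshold were called in liver (median log2 ratio 0.28), Rpl27 at 0.78 ± 0.09 and Rpl9 at 0.69 ± 0.08 among them, with peaks at ZT16.6 and ZT16.7. Rpl9 shares 86.1% of its 50-base stretches with Rpl9-ps6, and Rpl27 64.1% with Gm11518. All 8 tested paralogues outside the rule were called, with Rpl7l1 at 0.59 ± 0.05 and a peak at ZT19.3.

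Translation factors with TOP messengers were called in 14 of 17 cases in liver, at a median of 0.21. Eif4b, which assists the helicase at the cap, had 0.66 ± 0.06 with a peak at ZT8.6, and Pabpc1, the poly(A)-binding protein, 0.39 ± 0.04 with a peak at ZT11.1. Of 34 ribosome assembly genes 32 were called, at a median of 0.48, and 24 of the 34 had a called 12 h component, beside the 12 h background of 17.2%. Ncl, nucleolin, had 0.62 ± 0.03 with a peak at ZT13.4, and Nop16 0.91 ± 0.06 with a peak at ZT19.1. The assembly genes' share of 94.1% and the members' 46.8% stand beside that background, and no test of either list was made.

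RNA polymerase I, which makes ribosomal RNA, had 18 of 19 genes called in liver (median 0.47), with Taf1c, a subunit of its selectivity factor, at 1.41 ± 0.11 and a peak at ZT18.9. Among 24 genes of mTOR and TOP control 20 were called (median 0.47). Larp1, which binds the TOP tract, had 0.61 ± 0.04 with a peak at ZT23.0, and Eif4ebp3, an inhibitor of cap-dependent translation, 2.95 ± 0.20 with a peak at ZT16.2. Of 78 mitochondrial ribosomal protein genes 52 were called (66.7%), at a median of 0.17, close to the members' 0.16.

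The same lists were read in the brain. In cortex 3 of 33 ribosomal protein genes below the CPM threshold, 2 of 9 paralogues outside the rule, 3 of 17 translation factors, 18 of 34 assembly genes, 6 of 19 for RNA polymerase I, 10 of 24 of mTOR and TOP control and 22 of 78 mitochondrial ribosomal protein genes were called, beside the background of 43.7%. In hypothalamus the counts were, in that order, 0, 1, 2, 13, 4, 2 and 7, beside 24.3%. Eif4b was called in cortex (0.15 ± 0.02) and hypothalamus (0.19 ± 0.02), as was Rpl7l1 (0.19 ± 0.04 and 0.17 ± 0.04). In striatum 1 assembly gene, Ebna1bp2 (0.22 ± 0.05), and 2 control genes, Ddit4 (0.54 ± 0.10) and Castor1 (0.41 ± 0.12), were called, beside 5.70%, and none of the other lists' genes.

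The share of unique sequence was set beside the liver rhythm for all 77 matching genes that were tested. The Spearman rank correlation of that share with the log2 ratio was -0.50 over the 77 and -0.29 over the 46 members, and -0.35 and -0.20 when each gene was summed with its pseudogenes. The 29 genes with under 30% unique sequence had a median log2 ratio of 0.27, and the 48 others 0.16. In cortex the correlation over the members was 0.10, in striatum -0.18 and in hypothalamus -0.20. The share of unique sequence also rose with mean FPKM, at a Spearman's rho of 0.39 in liver over 79 genes. The genes compared share libraries and partly share sequence, and the parts of level and of multiply matching reads in the ratios were not tested.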

How the data were processed

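The deposited data hold 1 table of counts and 1 of FPKM per tissue. The deposited counts are raw counts per Ensembl gene, and the authors' FPKM were proportional to CPM over gene-model length in each table. The tools named, per the submitters' processing notes, are HTSeq 0.10.0 and STAR 2.7.3a, with mm10 and GRCm38 as builds. No annotation release, strand setting or rule for multiply matching reads is given there. Of 48795 identifiers 48349 had a symbol.

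Counts were tested with edgeR 4.0.16 (filterByExpr, TMM, quasi-likelihood F tests) and, as an alternative, DESeq2 1.42.0 in R 4.3.3, on all genes passing the filter, with Benjamini-Hochberg adjustment and a threshold of 0.05. Standard errors of ratios used the delta method. Tissue pairs kept the mouse as a block (58 mice had 4 tissues, 19 had 3). Single CPM values are counts over the library total. The length slope used genes above 5 CPM and added 0.5 to CPM before the log2. Methods were tested on simulated data. Start windows come from RefSeq, and transcripts from GENCODE M21 (GRCm38), whether or not the authors counted on that release. 16 members had no promoter entry. The depth was 11677671 to 50009419 counts a library, so that the least deeply sequenced striatum libraries give the least precise values.

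Some members are not reported by name here. Members were named by role, by the largest and smallest ratios and p-values, by level, and by difference between tissues; the E-box holders, the length slope, the summing with pseudogenes and the unique-sequence split were chosen after values were seen. The members and lists were chosen with earlier results of these data known. Alternatives were other scalings, filters, cycle, covariates and libraries.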

Additional observations from a re-analysis of the deposited data

Results flagged for a closer look

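Among 26 groups of 4 to 10 libraries of 1 tissue and ZT, 3 held a library whose summed share of counts lay far from the others. Chance marks about 1 group in 20. In cortex ZT21 replicate 2 had 0.266%, with the others between 0.246% and 0.253%. In striatum ZT9 replicate 9 had 0.563%, with the others between 0.340% and 0.450%. In liver ZT15 replicate 3 had 0.433%, with the others between 0.366% and 0.385%, and its length slope was -0.10.

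Rhythms differed between liver and a brain tissue by edgeR's test of the interaction for 10 members against cortex (smallest adjusted p = 8.8e-12), 2 against striatum (1.9e-07) and 4 against hypothalamus (1.5e-08), in each case with Rpl10a at the smallest p.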

How the results depend on the processing

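Counts of called members are given here where they moved by over 1.5 times. The split of level calls into higher and lower by total counts alone is given above. In cortex the 6 rhythmic members became 11 with a replicate block (41.0% of all genes called) and 2 with ZT as a factor (36.1%). In striatum the 0 became 2 with Gm42418 as a covariate (10.1%), 1 with the length slope (11.7%) and 2 with ZT as a factor (5.60%). In hypothalamus the 0 became 1 by total counts alone (23.8%), 4 with a replicate block (35.0%), 1 with Gm42418 (32.9%) and 2 with the length slope (39.9%). In liver the 22 became 9 in the first cycle (63.0%), 36 with the length slope (78.4%), 13 with ZT18 replicate 4 (72.8%) and 35 with ZT as a factor (72.1%). The 12 h count in striatum became 2 with no filter (0.113%) and 45 with a replicate block (24.1%, from 6 to 5207 of all genes), and that in liver 2 with DESeq2's size factors (17.1%) and 2 with a replicate block (16.9%). The cycle count in striatum became 2 with the length slope (16.9%). Rhythm differences from liver became 18 for cortex (54.9%), 11 for striatum (36.3%) and 13 for hypothalamus (53.2%) with the length slopes. Replicate numbers did not pair libraries: the mean correlation of libraries with the same number was 0.11 in hypothalamus, 0.07 in cortex, 0.06 in striatum and 0.0023 in liver. Of the genes followed by name, a direction reversed for 1: Rpl22 in hypothalamus against cortex had a log2 difference of 0.034 by total counts alone. The members' median level difference of liver also changed sign under that scaling. It went from 0.61 to -0.45 against striatum and from 0.74 to -0.35 against hypothalamus. The cause of these changes was not tested. Of the other alternatives for counts of calls, 143 stayed within 1.5 times.

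Striatum had 2 libraries at ZT15 and 4 at ZT18, which limits what a time curve can show there. The part of cell make-up and RNA quality in the spread between libraries was not tested. Reads shared with pseudogenes leave the levels of Rpl10a, Rpl3 and Rpl14 uncertain, and in liver those of Rps15a and Rps24 as well. The same holds for members with little unique sequence, such as Rpl5 at 6.16%.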
